A study of Mus musculus with 4 samples.

Results

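Polycomb repressive complex 2 (PRC2) is described here through the genes of 9 of its subunits in mouse embryonic stem cells (ESCs) with and without knockdown of Ythdf2. The members were chosen by gene symbol, and all 9 were found among the 49997 genes of the count table and among the 18341 genes that passed the filter on low counts. Ythdf2 encodes a reader of N6-methyladenosine (m6A), a methyl mark on adenosines of mRNA, and the question is whether transcripts of PRC2 subunits differed in level when this reader was reduced. The cells were of the E14 line, a pluripotent line from the early mouse embryo, and the study's methods describe ESCs that carry a MERVL-promoter tdTomato reporter. The shScramble group (2 libraries) carried a lentiviral hairpin RNA of scrambled sequence, and the shYthdf2 group (2 libraries) a hairpin directed at Ythdf2 in the same vector. Both groups were kept as stable lines under puromycin and were grown on gelatin with LIF. The study lists more than one hairpin against Ythdf2, and the labels do not say which was sequenced. A hairpin lowers a transcript and does not delete the gene, so the shYthdf2 cells keep part of it.

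PRC2 places methyl groups on a lysine in the tail of histone H3 (H3K27), and genes marked this way are held at low output, which in ESCs includes many regulators of later development. EZH2, or its paralogue EZH1, is the methyltransferase, and it works only together with EED and SUZ12. Accessory subunits then define separate forms of the complex: JARID2 and AEBP2 belong to the form called PRC2.2, and the Polycomb-like proteins MTF2, PHF1 and PHF19 belong to PRC2.1 and bring it to CpG islands.

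The libraries held 31113006 to 36422510 counted reads. Ythdf2 itself was at 93.4 and 87.6 CPM (reads after TMM scaling to library size) in the shScramble libraries while shYthdf2 libraries held 31.8 and 30.2 CPM of it, a log2 fold change of -1.55 (SE 0.11, adjusted p = 0.00069, edgeR). At an adjusted p under 0.05 the shYthdf2 libraries were higher for 445 genes and lower for 273, and the median log2 fold change was 0.00. Markers of 2C-like cells, a rare state resembling the 2-cell embryo, moved with the knockdown: their summed level was 53.5 and 81.5 CPM in shScramble and 105 and 268 CPM in shYthdf2. Of 20 listed 16 were tested, and 3 were called higher by edgeR, 5 by DESeq2 and 1 by limma-voom. Summed ESC markers were at 7113 and 6784 CPM against 6702 and 6092 CPM, and 1 of 11, Tdgf1, was called lower by edgeR, 3 by DESeq2 and 2 by limma-voom. Without adjustment (p under 0.05) 4 ESC markers were lower, among them Nanog (log2 fold change -0.41) and Lin28a (-0.49). At that p 0 were higher, against 9.8% lower and 11% higher over all genes tested. The list was mixed, with 7 log2 fold changes below 0 and 4 above, among them Pou5f1 (0.13) and Sall4 (0.20), and a median of -0.09. Proliferation genes were at 3832 and 3676 CPM against 3564 and 3615 CPM, with 0 of 10 called by edgeR, DESeq2 or limma-voom and 0 at an unadjusted p under 0.05. Feeder markers summed to 17.0 and 17.6 CPM against 9.33 and 15.6 CPM (3 of 7 tested, 0 called by any of these tools, 1 at an unadjusted p under 0.05), and Dcn had no reads. Primitive endoderm markers were at 15.0 and 15.0 CPM against 19.5 and 12.04 CPM, and neural markers at 149 and 104 CPM against 230 and 169 CPM with Nes called higher. Most of the neural sum was Tubb3, at 115 and 69.2 CPM against 179 and 126 CPM, which was not called. Sox1 (log2 fold change 0.10) overlapped between the groups, as did Map2, which went lower (-0.31). Trophectoderm markers summed to 136 and 145 CPM against 138 and 123 CPM, a sum held up by Tfap2c (log2 fold change 0.33). Their median log2 fold change was -0.79, and Tead4 (-0.76) was called lower. Of 6 tested, 4 (Gata3, Tead4, Krt8, Krt18) were lower without overlap and at an unadjusted p under 0.05, against 25.5% and 9.8% of all genes. Of the other 2, Tfap2c was higher without overlap, as were 26.2% of all genes. Cdx2 (0.84) was also higher but near the floor, at 0.222 and 0.190 CPM against 0.410 and 0.335 CPM. It had 8 and 6 reads in shScramble and 14 and 12 in shYthdf2, and passed the filter only through shYthdf2. Its lack of overlap is thus not set against the share of all genes. The part that these marker levels play in the PRC2 results was not tested.

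Of the 9 PRC2 genes, 1 passed the test: Mtf2 was lower in the knockdown, at 70.5% of its shScramble level. By edgeR with Benjamini-Hochberg adjustment over all genes tested, 1 of 9 was called lower (11.1%), where 1.49% of all genes were, and 0 of 9 were called higher, where 2.43% of all genes were (3.91% in either direction). DESeq2 and limma-voom gave the same counts, 1 lower and 0 higher. With an unadjusted p under 0.05, Suz12, Jarid2, Mtf2 and Phf19 were lower and 0 members were higher, against 9.8% and 11% of all genes. The CPM values of the groups did not overlap for 6 of 9 members in the lower direction and for 1 in the higher direction, against 25.5% and 26.2% of all genes. This lower share, 66.7%, was not particular to PRC2. Of 12 genes of variant PRC1, a further Polycomb complex, 8 were lower without overlap (66.7%) and 4 higher. The median log2 fold change of the 9 was -0.21, beside 0.00 over all genes tested. These are bulk libraries, in which fewer cells of a type and less RNA per cell cannot be told apart.

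**Figure D1:**
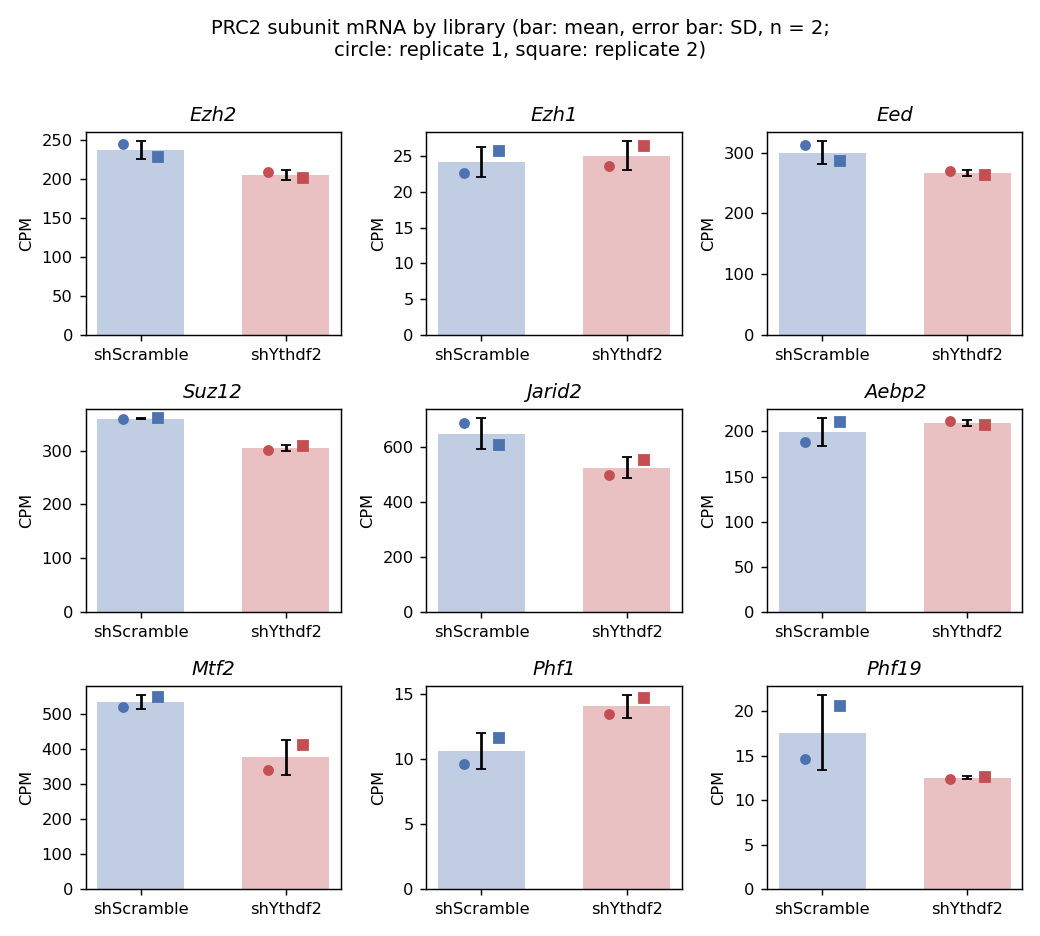
Level of each PRC2 gene in CPM (vertical axes, one panel per gene, starting at 0) in the shScramble and shYthdf2 libraries, with points for single libraries, bars for the mean and error bars for the SD (n = 2). The shYthdf2 points of Mtf2 sit at 339 and 411 CPM under the shScramble points at 518 and 546 CPM, while the points of Ezh1 and Aebp2 overlap between groups.

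Of the core subunits, Ezh2, Eed and Suz12 had lower values in both knockdown libraries without passing the test, and Ezh1 overlapped between the groups. Ezh2, the main methyltransferase of dividing cells, lies on the minus strand at chr6:47530274-47595270 (mm10; 21 exon blocks) and was at 245 and 229 CPM in shScramble and 209 and 201 CPM in shYthdf2. Both knockdown libraries were under both controls. The log2 fold change was -0.21 (SE 0.10, 95% interval -0.43 to 0.02, adjusted p = 0.285, edgeR), which did not pass the test. Exons of Ezh2 share 62 bases with F830010H11Rik on the opposite strand. That gene was given 41 reads over the 4 libraries, against 30385 for Ezh2. These counts do not say how many reads fell in the shared bases.

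Ezh1, the paralogue that is usually most abundant in non-dividing tissue, lies on the minus strand at chr11:101191115-101226463 (21 exon blocks). It stood at 22.7 and 25.6 CPM in shScramble and at 23.6 and 26.4 CPM in shYthdf2. The groups overlapped, and the log2 fold change of 0.05 (SE 0.15, interval -0.28 to 0.39) did not pass the test (adjusted p = 0.89, edgeR). Its sign turned without shScramble replicate 1 (-0.031) and without shYthdf2 replicate 2 (-0.029). Per exon length, Ezh1 made up 6.55% and 7.82% of the summed Ezh1 and Ezh2 level in shScramble and 7.88% and 9.06% in shYthdf2. The log2 ratio of Ezh1 to Ezh2 was 0.26 higher in shYthdf2, with no overlap between the groups, at p = 0.33 by a two-sided exact permutation test, the smallest p that 2 against 2 libraries allow. It was 0.12 without shScramble replicate 1 and 0.15 without shYthdf2 replicate 2.

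Eed, the subunit that binds the methylated histone tail and stimulates the enzyme, lies on the minus strand at chr7:89954654-89980976 (12 exon blocks). Its libraries were at 313 and 286 CPM in shScramble and at 270 and 263 CPM in shYthdf2. The knockdown values lay under the controls without overlap. At -0.17 on the log2 scale (SE 0.10, interval -0.40 to 0.06, adjusted p = 0.394, edgeR) the difference did not pass the test, and it was -0.10 without shScramble replicate 1.

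Suz12, the zinc finger scaffold on which accessory subunits assemble, lies on the plus strand at chr11:79993106-80034123 (16 exon blocks). The shScramble libraries were at 359.2 and 360.04 CPM and the shYthdf2 libraries at 301 and 308 CPM. Both groups were narrow and lay apart. The log2 fold change of -0.24 (SE 0.098, interval -0.46 to -0.02) had an unadjusted p of 0.0356 and an adjusted p of 0.203 (edgeR). Its interval excludes 0 before adjustment, and the change was not called among all genes.

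The promoters of the members were searched for words bound by E2F factors, cell-cycle regulators known to act on several PRC2 genes. The words were TTTCCCGC, TTTCGCGC, TTTGCCGC and TTTGGCGC on either strand, in RefSeq windows (GRCm38.p6, the mm10 assembly) of 250 bases before to 50 after a start site. Of 13 windows of the members 3 held a word, 1 each of Ezh2, Suz12 and Phf19, where 744 of 32851 promoters (2.265%) did. The words contain CpG, and 10 of the 13 windows had a CpG observed over expected of at least 0.6, against a median of 0.384 over all promoters; of the 11765 promoters at or above 0.6, 5.02% held a word. The matches are shown with their word in capitals, at chr6:47595009-47595038 (minus strand) for Ezh2, chr11:79992876-79992905 (plus strand) for Suz12 and chr2:34914166-34914195 (minus strand, word on the other strand) for Phf19. The Ezh2 and Phf19 matches lie inside the spans given here for these genes, which begin upstream of the start sites of their windows. The matches describe these windows and carry no statement about binding.
Ezh2: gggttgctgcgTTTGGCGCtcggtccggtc
Suz12: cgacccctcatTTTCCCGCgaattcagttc
Phf19: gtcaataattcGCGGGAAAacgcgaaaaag

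Of the PRC2.2 subunits, Jarid2 lay lower in the knockdown libraries and Aebp2 did not separate. Jarid2, a DNA-binding member of the Jumonji family without demethylase activity, lies on the plus strand at chr13:44730774-44921643 (21 exon blocks). It was at 689 and 609 CPM in shScramble and at 498 and 553 CPM in shYthdf2. The groups did not overlap, with means of 649 and 526 CPM and a spread within each of 56.7 and 38.5 CPM (SD, n = 2). The log2 fold change was -0.30 (SE 0.11, interval -0.55 to -0.06, adjusted p = 0.158, edgeR), and the call depended on the libraries. It was made without shYthdf2 replicate 2 (-0.38, adjusted p = 0.00846, edgeR) and not without shScramble replicate 1 (-0.21, 0.606), shScramble replicate 2 (-0.39, 0.248) or shYthdf2 replicate 1 (-0.23, 0.246).

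Aebp2, a zinc finger protein that stimulates the enzyme, lies on the plus strand at chr6:140622454-140678472 (13 exon blocks). Its values were 188 and 210 CPM in shScramble and 212 and 207 CPM in shYthdf2, so the groups overlapped. Its log2 fold change of 0.07 (SE 0.11, interval -0.16 to 0.31, adjusted p = 0.746, edgeR) did not pass the test and was -0.0024 without shScramble replicate 1. The interval of Aebp2 leaves room for a change as large as the estimate for Ezh2 in the higher direction but not in the lower one.

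The Polycomb-like genes of PRC2.1 did not share a direction. Mtf2, which encodes the protein that brings PRC2 to unmethylated CpG islands in ESCs, lies on the plus strand at chr5:108065660-108109219 (20 exon blocks). It was at 518 and 546 CPM in shScramble and at 339 and 411 CPM in shYthdf2, counted from 18660, 17214, 11601 and 14707 reads. The highest knockdown library was thus more than 100 CPM under the lowest control. Mtf2 fell by 0.50 on the log2 scale (SE 0.12, interval -0.77 to -0.24, adjusted p = 0.0454, edgeR; DESeq2 adjusted p = 0.00174). The adjusted p lies close to the threshold. It was 0.0512 when libraries were scaled by their totals alone, and 0.113 without shScramble replicate 2, at fold changes that stayed negative. No member reached the study's own criterion of a log2 fold change of at least 1 in size.

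Phf19, a Polycomb-like protein that reads methylated lysine 36 of histone H3, lies on the minus strand at chr2:34893752-34914353 (15 exon blocks). It was at 14.6 and 20.6 CPM in shScramble and at 12.4 and 12.6 CPM in shYthdf2. Both knockdown libraries were lower, and the difference depended on which control was used. The log2 fold change of -0.49 (SE 0.20, interval -0.94 to -0.04, adjusted p = 0.203, edgeR) became -0.71 (adjusted p = 0.0492) without shScramble replicate 1 and -0.22 without shScramble replicate 2.

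Phf1, also a Polycomb-like reader of methylated lysine 36, lies on the plus strand at chr17:26933127-26937908 (15 exon blocks). It was at 9.63 and 11.6 CPM in shScramble and at 13.4 and 14.6 CPM in shYthdf2. It was the only member whose knockdown libraries both lay above both controls. With a log2 fold change of 0.40 (SE 0.19, interval -0.02 to 0.83, adjusted p = 0.258, edgeR) it did not pass the test.

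**Figure D2:**
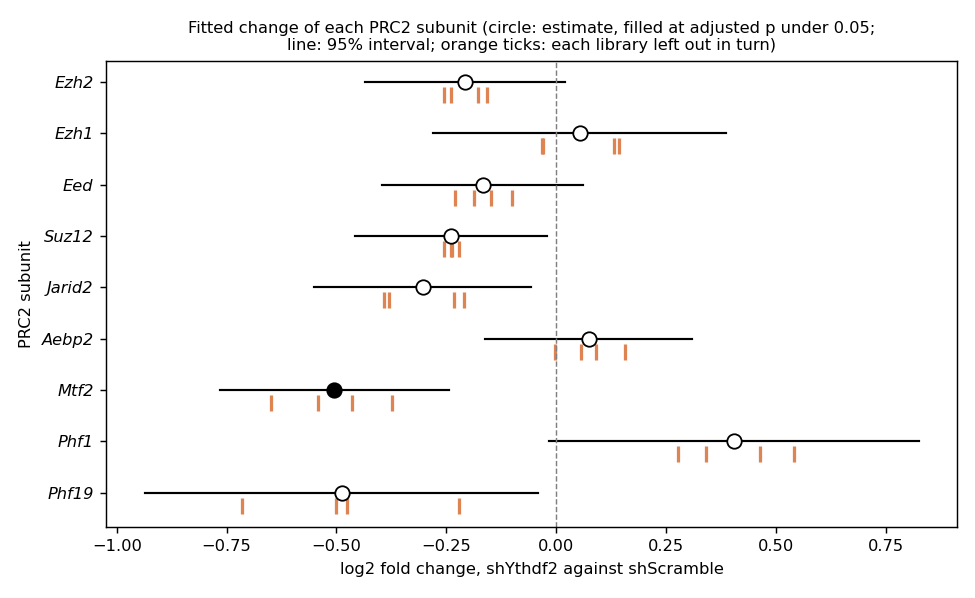
Fitted log2 fold change of shYthdf2 against shScramble for each PRC2 gene (points) with 95% intervals (lines), from edgeR over 18341 genes, ordered by role, and ticks for the fits with 1 library left out. Mtf2 is the member with an adjusted p under 0.05, and the intervals of Suz12, Jarid2 and Phf19 also lie under 0 before adjustment.

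The letters GGACT, the DNA form of the most common m6A motif, were searched in the sense strand of principal GENCODE M21 transcripts (GRCm38), since m6A is known to gather near stop codons. Within 100 bases of the stop codon 22.3% of 21512 transcripts held it, and of the 9 members Mtf2 did. The site lies in the 3′ UTR at chr5:108106939-108106967 (plus strand), with the middle base 10 bases past the first base of the stop codon, and is printed because Mtf2 is the member that passed the test; GGACT is in capitals.
Mtf2: atcctgactgtaGGACTgaacgtaatgtt
Over whole transcripts Mtf2 had 2 such sites, or 0.493 per kb, against a median of 1.02 per kb over all transcripts. Phf1 had 5 (1.98 per kb), Jarid2 had 7 (1.17 per kb) and Suz12 had 0. Methylation of these sites was not measured in these libraries, and the letters alone do not show it.

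Compared per exon length, as CPM divided by exon length in kb (RPKM), the members covered a wide range, led by Eed. In shScramble the order was Eed at 145 ± 9.21, Suz12 at 82.2 ± 0.133, Mtf2 at 81.3 ± 3.05, Ezh2 at 74.2 ± 3.55, Jarid2 at 40.1 ± 3.51 and Aebp2 at 21.5 ± 1.69 RPKM (SD, n = 2). Ezh1 at 5.73 ± 0.497, Phf1 at 4.34 ± 0.564 and Phf19 at 4.26 ± 1.03 RPKM (SD, n = 2) formed the low end. Suz12 and Mtf2 overlapped in this order, as did Phf1 and Phf19. In shYthdf2 Mtf2, at 57.3 ± 7.73 RPKM, stood under Ezh2 at 64.3 ± 1.87 RPKM (SD, n = 2), and Phf1 at 5.74 ± 0.351 RPKM overlapped Ezh1 at 5.94 ± 0.470 RPKM. The order depends on the length used: with the principal transcript instead of all exons, Mtf2 came to 131 and Jarid2 to 108 RPKM in shScramble, both above Suz12 at 82.2 RPKM. By that length Mtf2 also stayed above Ezh2 in shYthdf2, at 92.4 against 73.6 RPKM, the reverse of their order by exon length.

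The balance between the forms of the complex was described by ratios of summed levels per exon length. The log2 ratio of PRC2.2 genes (Jarid2, Aebp2) to PRC2.1 genes (Mtf2, Phf1, Phf19) was -0.46 and -0.63 in shScramble and -0.17 and -0.35 in shYthdf2. Both knockdown libraries were above both controls, by 0.29 on average, at the smallest p the design allows (p = 0.33, two-sided exact permutation test). The sign of this ratio depends on the length used. By principal transcript length the summed PRC2.2 level lay above that of PRC2.1 in both groups. In shScramble, Jarid2 and Aebp2 were then at 108 and 53.4 RPKM, and Mtf2, Phf1 and Phf19 at 131, 4.21 and 4.70 RPKM. By exon length, Mtf2 made up 91.4% and 89.6% of the summed Polycomb-like level in shScramble and 85.9% and 87.4% in shYthdf2, so this ratio is mostly one of Jarid2 and Aebp2 to Mtf2. The log2 ratio of all accessory genes to the core was -1.08 and -0.96 in shScramble and -1.25 and -1.06 in shYthdf2, a difference of -0.13 with overlapping groups (exact permutation p = 0.667). Leaving out shYthdf2 replicate 1 or shScramble replicate 2 brought it to -0.039 or -0.075, and leaving out shYthdf2 replicate 2 to -0.23. The level of the accessory to core ratio also depends on the length, since the principal transcript raises Mtf2, Jarid2 and Aebp2 more than the core genes. The difference between groups was -0.11 by that length. Together the 9 genes took 0.233% and 0.233% of reads in shScramble and 0.185% and 0.202% in shYthdf2.

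**Figure D3:**
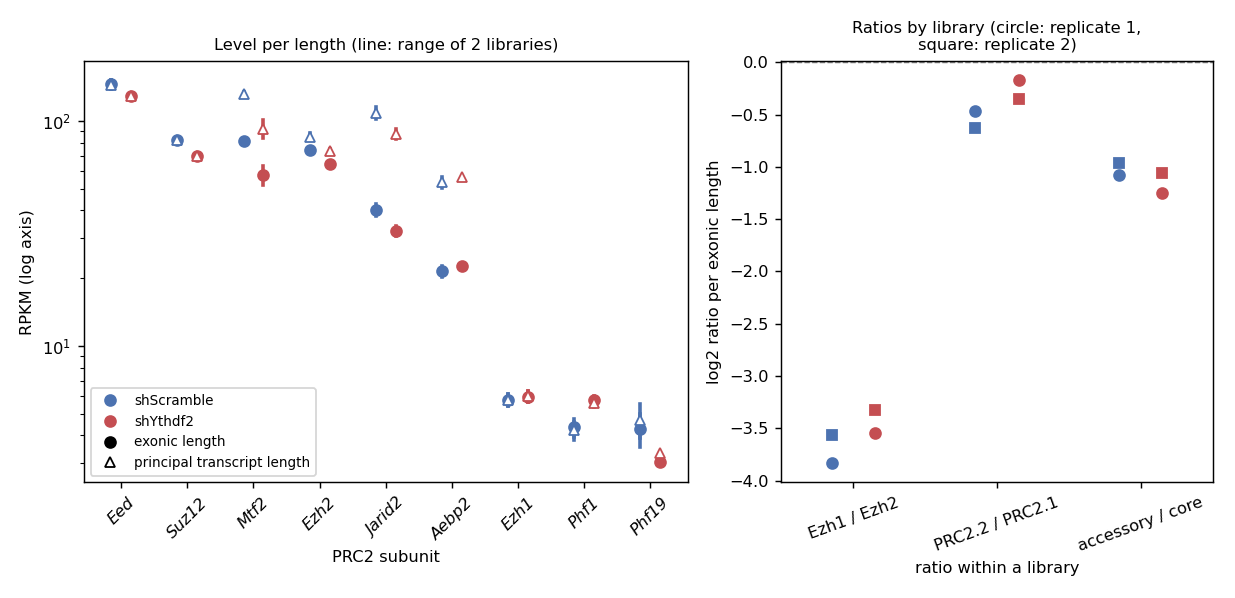
Left, mean level per length of each PRC2 gene in RPKM (log axis) in shScramble and shYthdf2, by exon length (filled) or principal transcript length (triangles), with lines for the range of 2 libraries. Right, log2 ratios of summed levels per exon length by library: Ezh1 to Ezh2 and PRC2.2 to PRC2.1 lie higher in both shYthdf2 libraries (differences of 0.26 and 0.29), and accessory to core overlaps between groups.

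The genes whose pattern over the 4 libraries was most like that of Mtf2 were Lrba, Bbs9 and Cert1, by the root mean square difference of centred log2 CPM among 9536 genes with a mean of at least 10 CPM. These differences were 0.00827, 0.0182 and 0.0269. They were chosen for matching Mtf2 over the same libraries, so their log2 fold changes of -0.50 (Lrba), -0.53 (Bbs9) and -0.50 (Cert1) follow from the choice and are given as a description.

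Further PRC2 subunits and cofactors showed no call. Of 6 such genes (Rbbp4, Rbbp7, Epop, Lcor, Lcorl, Ezhip), 0 were called by edgeR, DESeq2 or limma-voom, 0 had an unadjusted p under 0.05, and the median log2 fold change was -0.05. The histone-binding WD40 proteins Rbbp4 and Rbbp7 were at 0.08 and 0.11 on the log2 fold change scale. Epop, which joins PRC2.1 to elongin, was at 459 and 333 CPM in shScramble and at 454 and 360 CPM in shYthdf2, a spread within groups far above the difference between them. Ezhip, an inhibitor of the enzyme, was at 35.1 and 24.1 CPM against 34.0 and 18.9 CPM, again with overlap.

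Among the genes of PRC1, the Polycomb complex that ubiquitinates histone H2A, canonical subunits moved in both directions. Of 14 canonical genes 1 was called higher and 1 lower by edgeR, against 2.43% and 1.49% of all genes, with a median log2 fold change of -0.03. At an unadjusted p under 0.05, 4 canonical genes were higher and 2 lower. Without overlap between the groups, 5 were higher and 2 lower. Cbx6, a chromobox reader of methylated H3K27, was at 57.1 and 59.5 CPM in shScramble and at 93.5 and 82.2 CPM in shYthdf2, and rose by 0.59 on the log2 scale (SE 0.11, adjusted p = 0.0263, edgeR). Scml2, a PRC1-associated MBT-domain protein, was at 123 and 103 CPM in shScramble and at 68.1 and 49.6 CPM in shYthdf2, and fell by 0.94 (SE 0.16, adjusted p = 0.0155, edgeR). Of 12 variant PRC1 genes 0 were called by edgeR, DESeq2 or limma-voom, 2 were higher and 3 lower at an unadjusted p under 0.05, and the median was -0.19. Over all genes tested, 11% were higher and 9.8% lower at that p. The CPM values of the groups did not overlap for 8 of the 12 variant genes in the lower direction and for 4 in the higher. The shares of all genes were 25.5% and 26.2%.

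Enzymes that counter Polycomb were not called by edgeR or limma-voom. Of the 2 H3K27 demethylases 0 had an unadjusted p under 0.05, and DESeq2 called 0. Of 6 genes of PR-DUB, the complex that removes the H2A mark, 1 was higher at an unadjusted p under 0.05 and 1 was called higher by DESeq2. Of 7 methyltransferases for H3K36 and H3K4, 1 was higher and 2 were lower at an unadjusted p under 0.05, DESeq2 called 1 lower, and the median was -0.22. The shares of all genes tested at that p were 11% higher and 9.8% lower.

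Genes commonly held silent by PRC2 in ESCs were mostly near the floor of detection. Of 39 Hox genes 20 passed the filter and 0 were called by edgeR, DESeq2 or limma-voom, with 1 higher and 2 lower at an unadjusted p under 0.05 and a median of -0.02. At that p 11% of all genes tested were higher and 9.8% lower. Hoxd11, the gene higher at that p, had 9 and 2 reads in shScramble and 19 and 30 in shYthdf2. Hoxb7, among the lower ones, had 14 and 32 reads in shScramble and 4 and 2 in shYthdf2. Both passed the filter only through the group where they were higher, so these Hox counts cannot be weighed against the shares of all genes. Of 36 other listed developmental genes 35 were found, of which 18 passed the filter, 1 was called higher and 0 lower by edgeR and by DESeq2, 3 were higher and 1 lower at an unadjusted p under 0.05, and the median was 0.19. Among the 3, Nkx2-2 had 3 and 1 reads in shScramble and 26 and 16 in shYthdf2. It passed the filter only through shYthdf2, so this count too cannot be weighed against the shares of all genes. The called gene was Wt1, a zinc finger regulator of kidney and gonad development, with 19 and 18 reads in shScramble and 65 and 78 reads in shYthdf2. It rose by 1.89 on the log2 scale (SE 0.42, adjusted p = 0.0400, edgeR), from 0.528 and 0.571 CPM to 1.90 and 2.18 CPM, and limma-voom gave an adjusted p of 0.0571. H3K27 methylation and PRC2 binding were not measured in these libraries.

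**Figure D4:**
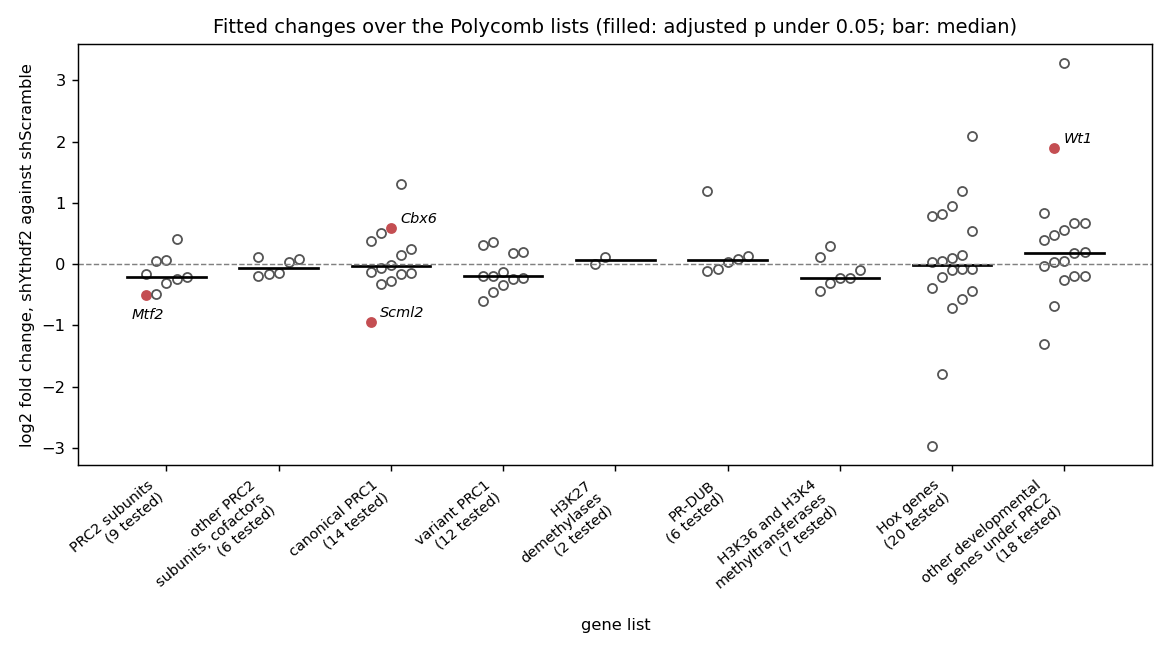
Fitted log2 fold changes of shYthdf2 against shScramble (vertical axis) for the PRC2 subunits and 8 other Polycomb lists, with a point for each gene tested and a line at each list's median. Filled points are the genes with an adjusted p under 0.05, which are Mtf2, Cbx6, Scml2 and Wt1.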

How the data were processed

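RNA from 2 shScramble and 2 shYthdf2 ESC samples, independent biological replicates per the study's methods, was poly(A)-selected and sequenced as stranded (dUTP) paired-end libraries. The submitters' processing notes name fastp 0.19.4, HISAT2 2.2.1, featureCounts 2.0.3 and DESeq2 1.40.2. The authors deposited 1 table of raw read counts per gene, made per the file headers with featureCounts over RefSeq exons of mm10. Single reads rather than pairs were counted, without strand, so antisense reads cannot be kept apart and read numbers exceed fragment numbers. Multi-mapped reads were left out. None of the members shared a 150-base stretch with transcripts of another gene.

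Groups were taken from sample titles. The counts were tested with edgeR 4.0.16 in R 4.3.3 (quasi-likelihood F test, two-sided, TMM scaling, filterByExpr with minimum count 10 and minimum total 15, Benjamini-Hochberg adjustment over 18341 genes). CPM values are TMM-scaled, RPKM divides them by deposited exon length, and SE and 95% intervals of log2 fold changes come from the F statistic. Biological variation (edgeR's coefficient) was 15.8%. DESeq2 1.42.0, limma-voom (limma 3.58.1), other scalings and filters, the replicate block and the omission of each library were alternatives. Single ratios were compared by exact permutation tests, which cannot give p under 0.33 here. The scripts were tested on simulated data.

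The members and gene lists were chosen with earlier results of these data known. Genes named outside the members are those called within a Polycomb list, the remaining PRC2 cofactors and the 3 genes most like Mtf2. The marker genes named were chosen after their values were seen. Replicate libraries differed beyond sampling noise.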

Additional observations from a re-analysis of the deposited data

How the results depend on the processing

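Over 14 other settings the log2 fold change of Ythdf2 ranged from -1.59 to -1.50 and that of Mtf2 from -0.65 to -0.37, and Mtf2 was called in 11 of 13 settings that adjust p (adjusted p 1.13e-06 to 0.113). The members' median ranged from -0.23 to -0.16. With 1 library left out, Ezh1 ranged from -0.031 (without shScramble replicate 1) to 0.14 and was -0.029 without shYthdf2 replicate 2, and Aebp2 ranged from -0.0024 (without shScramble replicate 1) to 0.16. The number of members called lower was 0 with library totals, 0 by the study's criteria, 3 with the replicate block (Jarid2 adjusted p = 0.0132, Mtf2 1.9e-05, Phf19 0.0259; edgeR) and 0 to 2 when 1 library was left out (0 without shScramble replicate 2, 2 without shScramble replicate 1 or shYthdf2 replicate 2). For the other Polycomb lists, genes called higher (2 in the report) numbered 5 with no filter, 4 by the study's criteria, 1 with limma-voom, 14 with the block and 2 to 7 with 1 library left out. Genes called lower (1) numbered 5, 3 and 10 with no filter, the study's criteria and the block, 2 with DESeq2 and 1 to 4 with 1 library left out. Among all genes, 1095 were called higher with no filter, 800 with DESeq2, 1851 with the block and 534 to 1175 with 1 library left out, and 843, 602, 1674 and 300 to 1113 lower. The cause of these shifts was not tested. A fit that leaves out 1 library takes the lone library of its group to vary like the other group.

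The replicate numbers are shared between groups, but the 2 pairs do not establish pairing: deviations of same-numbered libraries correlated at 0.225 over all genes tested and at 0.0971 over the members. Within number 1 and number 2 the log2 difference of Mtf2 was -0.61 and -0.41. Another length per gene, the principal transcript, was chosen after seeing the data. It gave a difference between groups of 0.30 in the log2 ratio of PRC2.2 to PRC2.1, while the sign of that ratio changed with the length. With 1 library left out the ratio differences ranged from 0.12 to 0.40 (Ezh1 to Ezh2), 0.20 to 0.38 (PRC2.2 to PRC2.1) and -0.23 to -0.039 (accessory to core). Precision at this depth was lowest for the least abundant members: the SE of the log2 fold change was 0.19 and 0.20 for Phf1 and Phf19, against 0.098 to 0.12 for the members above 100 CPM.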
